A study of Homo sapiens with 12 samples.

Results

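UM-UC14 and UM-UC9 are human urothelial (bladder) cancer cell lines, and their control states were compared here: UM-UC14 cells carrying a non-targeting short hairpin RNA (shRNA) against untreated UM-UC9 cells. The comparison used 6 of the series' 12 bead arrays, 3 arrays of each line, chosen by their labels. The other 6 arrays held UM-UC14 cells with an shRNA against FABP4 and UM-UC9 cells given rosiglitazone, which activates PPARG, a nuclear receptor (1 µM, 24 hours). Of 13293 genes tested, 12081 were detected on 3 of 3 control arrays of at least 1 line. All cultures were grown in the same serum-containing medium, per the labels. The UM-UC14 control cells carried an shRNA construct and the UM-UC9 control cells did not, so a difference between the lines and an effect of carrying the construct cannot be told apart. Each side is 1 cell line, the sources used here do not say whether the 3 arrays of a group came from separate cultures, and the p-values measure only the spread between arrays, which may be technical.

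Urothelium is a layered epithelium in which basal cells, marked by keratins such as KRT5 and KRT14, give rise to luminal umbrella cells that carry uroplakins and KRT20. Bladder cancers are commonly sorted along this luminal to basal axis. The transcription factors PPARG, GATA3 and FOXA1 are known for promoting luminal differentiation, and the growth factor receptors FGFR3 and EGFR are known drivers of the disease.

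The lines differed in many genes. A gene was called when limma's Benjamini-Hochberg adjusted p was below 0.05 and the difference at least 2-fold, and 3449 of 13293 genes (25.9%) were called. Of these, 1724 (13%) were higher and 1725 (13%) were lower in UM-UC14 cells. The 13% each way over all genes is the share to set beside every list count below. With arrays scaled to 1 median instead of quantile normalized, a setting called median scaling below, which moved the median of all genes to -0.15 log2 units against -0.02, the split was 1402 higher and 2132 lower (39.7% against 50% higher). At least 4-fold, 1148 genes (8.64%) were called, 579 (4.36%) higher and 569 (4.28%) lower. The control arrays of the lines did not overlap in 9050 genes (68.1%), so the absence of overlap was common. An array correlated with the control arrays of the other line at r between 0.852 and 0.869 across genes, and with the others of its own group at 0.988 to 0.998. Replicate 1 of the UM-UC14 control arrays stood apart from replicates 2 and 3: it correlated at 0.988 with them and at 0.989 with the average FABP4 shRNA profile. Without it, 3703 genes were called, 1834 higher and 1869 lower. Both lines were detected together for most genes: 10072 genes were detected on all 6 control arrays, 504 on all UM-UC14 arrays and no UM-UC9 array, and 623 on all UM-UC9 arrays and no UM-UC14 array. Levels below are normalised log2 intensities, given for replicates 1 to 3 of each line, and differences are UM-UC14 minus UM-UC9. Where a gene was detected on no array of a line, its level there has only an upper bound, and the fold is given as a lower bound against the detection limit of those arrays. For a gene detected on only some arrays of a line the fitted difference is given, and its size is uncertain. Of 172 called list or leading genes with another kept probe, 164 had every probe in the same direction and 8 had a probe of opposite sign. This counts sign alone, and for some genes another probe differed far less than the one used.

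The urothelial label held in both lines for the epithelial part of its markers. KRT7, KRT8, KRT18, KRT19, EPCAM, CDH1 and GATA3 were each detected on all 6 arrays, and none was called. EPCAM, an epithelial adhesion molecule, read 13.18, 13.46 and 13.35 in UM-UC14 cells, against 13.57, 13.42 and 13.60 in UM-UC9 cells (log2 difference -0.20, SE 0.09, adjusted p = 0.076). CDH1, the epithelial cadherin, read 12.55, 12.60 and 12.68 in UM-UC14 cells, against 12.76, 12.60 and 12.73 in UM-UC9 cells (log2 difference -0.09, SE 0.09, adjusted p = 0.41). For both genes the arrays of the lines overlapped. Of the uroplakins, which form the plaques of the umbrella cell surface, UPK1B and UPK2 were detected on all 6 arrays, and UPK3A was not detected on enough arrays of the series to be tested. Markers of other cell types were sparse. Of 12 fibroblast markers 5 were tested, and their summed linear level was 6097.6 to 7582.8 in UM-UC14 cells and 2534.1 to 2848.4 in UM-UC9 cells. The fibroblast genes PDGFRA, PDGFRB, FAP, THY1, COL3A1, POSTN and DPT were not detected on enough arrays. Of 20 blood and endothelial markers 12 were tested, with a summed level of 3622.3 to 4798.3 in UM-UC14 cells and 1351.9 to 1540 in UM-UC9 cells, and PTPRC, the pan-leukocyte gene, was not detected on enough arrays. Of 13 adipocyte markers 8 were tested, with 17660.6 to 20181.5 in UM-UC14 cells and 6321.7 to 6932.2 in UM-UC9 cells, and of 16 neuroendocrine markers 6, with 1291.4 to 1880.1 in UM-UC14 cells and 1863.8 to 2177 in UM-UC9 cells. These sums rest on few members: FABP4 was the adipocyte marker called higher, and the list's median difference was -0.20, while FBLN1 and CD68, which gave most of the fibroblast and blood sums, were each called higher. The part of such cells in the differences was not tested, and in bulk RNA fewer cells of a type and less RNA per cell cannot be told apart.

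The largest differences were many-fold and belonged to genes of varied function. KRT13, a keratin of intermediate urothelial cells, read 14.13, 14.21 and 14.12 in UM-UC14 cells, against 4.64, 4.83 and 4.81 in UM-UC9 cells (log2 difference 9.39, SE 0.09, adjusted p = 5.4e-17). It was detected on 1 of 3 UM-UC9 arrays. Its UM-UC9 mean (4.76) lay below the detection limits of those arrays (4.79 to 4.88), so the size of this difference is uncertain. The tetraspanin gene CD81 read 13.60, 13.49 and 13.69 in UM-UC14 cells and was detected on no UM-UC9 array, so it was at least 438-fold higher (adjusted p = 8e-17). AKR1C2, which encodes a steroid and aldehyde reductase, read 15.04, 14.93 and 15.03 in UM-UC14 cells, against 6.70, 6.67 and 6.76 in UM-UC9 cells (log2 difference 8.29, SE 0.09, adjusted p = 1.6e-16). Of its 4 other kept probes 3 were also higher in UM-UC14 cells and 1 differed by 0.28, and AKR1C family members are close in sequence, so cross-hybridisation between them was not tested. The other leading genes higher in UM-UC14 cells were LXN (8.48), a carboxypeptidase inhibitor gene, PLAT (8.28), BASP1 (7.82), ALDH7A1 (7.11), BTBD16 (6.95) and RHPN2 (6.93), of which PLAT was detected on 1 of 3 and ALDH7A1 and RHPN2 on 2 of 3 UM-UC9 arrays, with COXFA4L2 (NDUFA4L2 on the array), which is known as a hypoxia-induced mitochondrial protein gene, at least 322-fold higher.

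In the opposite direction, COXFA4L3 (C15orf48 on the array) read 13.94, 13.85 and 13.76 in UM-UC9 cells and was detected on no UM-UC14 array, at least 518-fold lower in UM-UC14 cells (adjusted p = 1.3e-15). RARRES1, a retinoic acid response gene, read 13.08, 13.08 and 13.12 in UM-UC9 cells and was detected on no UM-UC14 array, at least 306-fold lower (adjusted p = 3.2e-16). GKN1, which encodes a secreted protein known from gastric mucosa, was at least 195-fold lower. The elongation factor gene EEF1A2 was at least 122-fold lower, EPB41L3, a membrane skeleton gene, at least 88.8-fold lower, RIC8A, a G protein chaperone gene, at least 74-fold lower, and the testis-type genes ACTL8 and COX7B2 at least 68.5-fold and at least 66.6-fold lower. STEAP1, a surface metalloreductase gene, read 5.04, 4.77 and 4.70 in UM-UC14 cells, against 11.41, 11.37 and 11.45 in UM-UC9 cells, and was detected on 1 of 3 UM-UC14 arrays (log2 difference -6.57, SE 0.11, adjusted p = 3.6e-15). All of these were called in the same direction in UM-UC14 cells with FABP4 shRNA against UM-UC9 cells with rosiglitazone. The means of that comparison share no array with this one, but the detection filter, normalization and estimate of spread were taken over all 12 arrays.

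Luminal and urothelial genes were called in both directions. Of 44 tested, 18 (40.9%) were higher and 12 (27.3%) lower in UM-UC14 cells, beside 13% each way over all genes, with a median difference of 0.49 beside -0.02 over all genes. UPK2 read 8.63, 8.87 and 9.10 in UM-UC14 cells, against 6.08, 6.22 and 6.16 in UM-UC9 cells (log2 difference 2.71, SE 0.14, adjusted p = 3.6e-10), and UPK1B read 11.06, 11.40 and 11.52 in UM-UC14 cells, against 9.39, 9.04 and 9.22 in UM-UC9 cells (log2 difference 2.11, SE 0.12, adjusted p = 1.9e-09). FOXA1 read 11.77, 12.60 and 12.34 in UM-UC14 cells, against 10.59, 10.37 and 10.40 in UM-UC9 cells (log2 difference 1.78, SE 0.16, adjusted p = 2.8e-07). In these genes every UM-UC14 array was above every UM-UC9 array. TBX3, a T-box transcription factor of the luminal programme, read 9.20, 9.60 and 9.76 in UM-UC14 cells, against 4.50, 4.92 and 4.42 in UM-UC9 cells (log2 difference 4.90, SE 0.15, adjusted p = 1.4e-12). It was detected on 1 of 3 UM-UC9 arrays. Its levels on the others lay below their detection limits (4.79 and 4.88), so the size of this difference is uncertain. SNX31, a sorting nexin gene of umbrella cells, was at least 21-fold higher. GATA3 read 8.65, 9.50 and 9.28 in UM-UC14 cells, against 8.51, 8.63 and 8.66 in UM-UC9 cells (log2 difference 0.55, SE 0.17, adjusted p = 0.012). Its lowest UM-UC14 array lay within the UM-UC9 range, and the difference was below 2-fold. UPK3B differed by 4.27, and of its 4 other kept probes 3 were also higher and 1 differed by -0.05.

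The luminal genes that were lower in UM-UC14 cells included the receptor PPARG and markers of terminal or secretory differentiation. KRT20, the umbrella cell keratin, read 6.15, 5.76 and 5.96 in UM-UC9 cells and was detected on no UM-UC14 array (at least 2.18-fold lower, adjusted p = 7.7e-07). SPINK1, a secreted trypsin inhibitor gene, was at least 24.9-fold lower, TOX3, which encodes a chromatin protein, at least 12.9-fold lower, and TMPRSS2, a membrane serine protease gene, at least 9.58-fold lower. GRHL2, a transcription factor that maintains epithelial junctions, read 6.42, 6.58 and 6.40 in UM-UC14 cells, against 8.92, 8.86 and 8.89 in UM-UC9 cells (log2 difference -2.43, SE 0.08, adjusted p = 7e-12). UM-UC14 cells had the higher uroplakin, FOXA1 and KRT13 levels, and UM-UC9 cells had the higher PPARG, GRHL2 and KRT20 levels. Of the 30 luminal genes called, 21 were called in the same direction between the FABP4 shRNA and rosiglitazone arrays and 2 in the opposite direction.

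**Figure D1:**
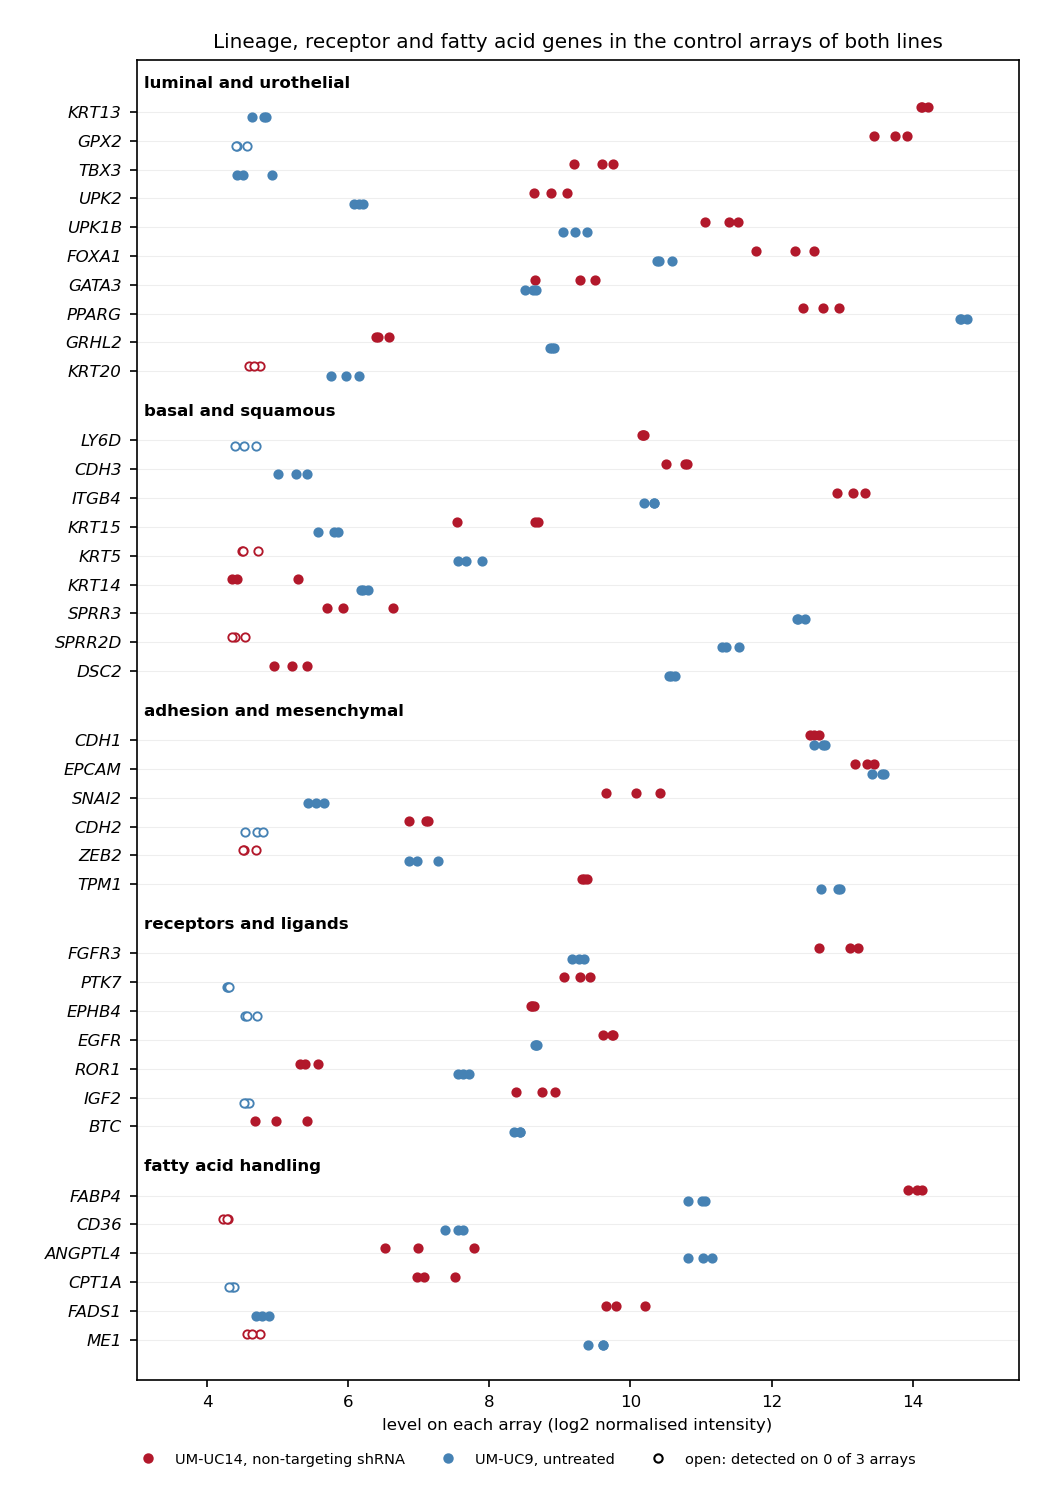
Level of 38 genes on each control array (x axis, log2 normalised intensity), UM-UC14 with non-targeting shRNA in red above untreated UM-UC9 in blue, with open points where the gene was detected on 0 of 3 arrays of that line. KRT13, UPK2 and FOXA1 lie to the right in UM-UC14, PPARG and KRT20 lie to the right in UM-UC9, and the CDH1 and EPCAM points of the lines overlap.

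Basal and squamous genes also split, with genes of the cornified envelope among those lower in UM-UC14 cells. Of 35 tested, 8 (22.9%) were higher and 15 (42.9%) lower, with a median difference of -0.23 (-0.16 with undetected genes at their bound). KRT5 read 7.67, 7.90 and 7.56 in UM-UC9 cells and was detected on no UM-UC14 control array (at least 7.34-fold lower, adjusted p = 9.8e-10). KRT14 read 5.29, 4.43 and 4.35 in UM-UC14 cells, against 6.19, 6.21 and 6.28 in UM-UC9 cells, and was detected on 1 of 3 UM-UC14 arrays (log2 difference -1.53, SE 0.19, adjusted p = 6.7e-06). SPRR3, a small proline-rich protein of the cornified envelope, read 6.64, 5.70 and 5.92 in UM-UC14 cells, against 12.47, 12.36 and 12.37 in UM-UC9 cells (log2 difference -6.31, SE 0.18, adjusted p = 9.2e-13). SPRR2D and SPRR2A were at least 94.6-fold and at least 40.5-fold lower, and these paralogs are close enough in sequence that their probes may not separate them. DSC2, a desmosomal cadherin gene, read 5.21, 4.95 and 5.42 in UM-UC14 cells, against 10.63, 10.58 and 10.54 in UM-UC9 cells (log2 difference -5.39, SE 0.11, adjusted p = 3.6e-14). SERPINB1, a protease inhibitor gene, was at least 79.1-fold lower. Among the genes higher in UM-UC14 cells, CDH3, the placental cadherin of basal cells, read 10.50, 10.80 and 10.78 in UM-UC14 cells, against 5.26, 5.42 and 5.01 in UM-UC9 cells (log2 difference 5.47, SE 0.13, adjusted p = 7.5e-14), and ITGB4, the hemidesmosomal integrin subunit, read 12.93, 13.15 and 13.32 in UM-UC14 cells, against 10.33, 10.33 and 10.19 in UM-UC9 cells (log2 difference 2.85, SE 0.13, adjusted p = 1e-10). LY6D, a surface protein of squamous and basal cells, was at least 41-fold higher, and KRT15 differed by 2.56. CD44 was not called, at -0.36. For KRT16 and ITGA6 the kept probes disagreed: the brighter probe gave 0.54 and 0.49, not called, while another probe gave -3.46 for KRT16 (adjusted p = 3.3e-07) and 1.45 for ITGA6 (adjusted p = 1.3e-05), so neither gene has a settled difference.

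The KRT5 call held in the control arrays and not in the other 6. It was detected on 3 of 3 FABP4 shRNA arrays and 3 of 3 rosiglitazone arrays, where the difference between the lines was 0.72 and was not called. The difference between these line contrasts was itself past the threshold (-3.86, adjusted p = 1.6e-07). For the basal list, 18 of 23 called genes were called in the same direction in those other arrays.

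Adhesion and mesenchymal genes added to a mixed picture. Of 27 tested genes of epithelial adhesion, 2 (7.41%) were higher (1 without UM-UC14 replicate 2) and 7 (25.9%) lower in UM-UC14 cells. Among the lower ones were the membrane serine protease PRSS8 (-3.13), the desmosomal plaque protein DSP (-1.94) and the polarity protein CRB3 (-1.41). Of 23 mesenchymal and EMT genes 9 (39.1%) were higher and 3 (13%) lower. SNAI2, a repressor of epithelial cadherins, read 9.65, 10.42 and 10.08 in UM-UC14 cells, against 5.66, 5.54 and 5.44 in UM-UC9 cells (log2 difference 4.51, SE 0.18, adjusted p = 4.3e-11). ZEB2, another such repressor, read 7.28, 6.86 and 6.97 in UM-UC9 cells and was detected on no UM-UC14 array (at least 4.61-fold lower, adjusted p = 3.1e-10). SNAI1, TWIST1 and ZEB1 were not detected on enough arrays. ACTA2, smooth muscle actin, differed by 3.87, S100A4, a calcium-binding protein, by 3.82, COL5A1, a fibrillar collagen chain, by 3.68, and TPM1, a tropomyosin, by -3.53. CDH2, the neural cadherin, was at least 4.64-fold higher. Of the 5 fibroblast markers tested 3 were higher (COL1A1, LUM and FBLN1) and COL1A2 was lower. The gene lists share some members (1479 entries, 1404 different genes), so these markers may not be separate from the mesenchymal list. The part of fibroblasts was not tested.

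Receptor tyrosine kinases were more often higher in UM-UC14 cells. Of 27 tested, 7 (25.9%) were higher and 1 (3.7%) lower, with a median difference of 0.35 (0.26 with undetected genes at their bound). FGFR3, the fibroblast growth factor receptor most often altered in bladder cancer, read 12.68, 13.11 and 13.22 in UM-UC14 cells, against 9.34, 9.17 and 9.27 in UM-UC9 cells (log2 difference 3.74, SE 0.15, adjusted p = 2.7e-11), and the lines did not overlap. Its other kept probe, far dimmer, differed by 0.53 and did not pass the test. PTK7, a pseudokinase receptor of planar polarity signalling, read 9.07, 9.29 and 9.42 in UM-UC14 cells and was detected on no UM-UC9 array (at least 21.7-fold higher, adjusted p = 1.7e-14). EPHB4, an ephrin receptor, was at least 13.9-fold higher, EPHB6, its kinase-dead relative, differed by 2.24, and the GAS6 receptor AXL by 1.72, with detection on 1 of 3 UM-UC9 arrays. CSF1R, the receptor of a macrophage growth factor, differed by 1.22. EGFR read 9.74, 9.75 and 9.61 in UM-UC14 cells, against 8.65, 8.66 and 8.68 in UM-UC9 cells (log2 difference 1.04, SE 0.08, adjusted p = 8.4e-08). ROR1, a receptor for Wnt ligands, was the member called lower (-2.22). ERBB2, ERBB3, MET and IGF1R were not called, at 0.14, 0.02, -0.60 and -0.49. FGFR1, FGFR2, ERBB4 and KIT were not detected on enough arrays. 5 of the 8 called receptors were called in the same direction in the other arrays, and EGFR was not among them (0.10).

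Ligands of these receptors were called both ways, 6 of 26 (23.1%) higher and 5 (19.2%) lower in UM-UC14 cells, beside 13% each way over all genes. IGF2, insulin-like growth factor 2, read 8.93, 8.37 and 8.75 in UM-UC14 cells and was detected on no UM-UC9 array (at least 14.6-fold higher, adjusted p = 3.8e-12). EFNB3, an ephrin ligand, and GAS6, the ligand of AXL, were at least 8-fold and at least 5.07-fold higher. BTC, the EGFR ligand betacellulin, read 5.42, 4.97 and 4.68 in UM-UC14 cells, against 8.44, 8.44 and 8.36 in UM-UC9 cells, with detection on 2 of 3 UM-UC14 arrays (log2 difference -3.39, SE 0.17, adjusted p = 2.9e-10). EFNB2, FGFBP1 and EREG differed by -2.31, -1.61 and -1.65, and EREG was detected on 1 of 3 UM-UC14 arrays. The EGFR ligands that were called were thus lower in UM-UC14 cells. EGFR itself was higher there by 1.04, just past 2-fold, and its other kept probe differed by 0.56. Of 24 genes that the ERK pathway induces, 5 (20.8%) were higher and 8 (33.3%) lower, although 3 were higher with median scaling. EGR1, an immediate early transcription factor, read 6.30, 5.87 and 5.76 in UM-UC14 cells, against 9.21, 9.10 and 9.12 in UM-UC9 cells (log2 difference -3.16, SE 0.16, adjusted p = 4.1e-10). IL11, a cytokine, differed by -5.14 and was detected on 1 of 3 UM-UC14 arrays. CCND1, cyclin D1, differed by -1.71, and LIF, another cytokine, by -2.16. ETV5, an ETS factor downstream of FGF receptors, differed by 1.61, and KCNN4, a potassium channel, by 2.33. PHLDA1 differed by 2.40, but its other kept probe ran the other way.

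PPARG was lower and its target FABP4 higher in UM-UC14 cells. PPARG read 12.45, 12.96 and 12.73 in UM-UC14 cells, against 14.78, 14.68 and 14.67 in UM-UC9 cells (log2 difference -2.00, SE 0.11, adjusted p = 1.6e-09), and its 3 other kept probes differed by -2.46, -3.71 and -1.87. FABP4, a fatty acid carrier, read 13.94, 14.13 and 14.06 in UM-UC14 cells, against 11.06, 11.01 and 10.82 in UM-UC9 cells (log2 difference 3.08, SE 0.11, adjusted p = 8.8e-12). PPARD and PPARA, the other receptors of the family, were below 2-fold, at -0.94 and -0.71 (2 other PPARD probes gave -1.33 and -1.29), as were their partners RXRA (0.46) and RXRB (-0.08). Of 16 receptors and coregulators of this group 3 (18.8%) were higher and 2 (12.5%) lower, beside 13% each way over all genes. The coactivators NCOA4 and NCOA1 differed by 1.27 and -1.22, and the corepressor NRIP1 by 1.22. Without UM-UC14 replicate 2, the differences of NRIP1 (0.85) and SIRT1 (0.95) were below 2-fold. Of 16 other nuclear receptors, 2 (12.5%) were higher and 1 (6.25%) lower, no more than the 13% each way over all genes. The orphan receptor NR2C1 differed by 1.56 and its relative NR2C2 by -1.37, and the retinoic acid receptor RARA by 1.11. NR3C1, the glucocorticoid receptor, VDR, the vitamin D receptor, and ESRRA were not called, at 0.31, -0.60 and -0.79.

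PPARG target genes did not share 1 direction. Of 27 tested, 5 (18.5%) were higher and 8 (29.6%) lower in UM-UC14 cells, with a median difference of -0.43. CD36, a fatty acid transporter, read 7.62, 7.38 and 7.55 in UM-UC9 cells and was detected on no UM-UC14 array (at least 6.43-fold lower, adjusted p = 7.2e-13). ANGPTL4, a lipoprotein lipase inhibitor, read 6.53, 6.99 and 7.78 in UM-UC14 cells, against 11.03, 11.16 and 10.81 in UM-UC9 cells (log2 difference -3.90, SE 0.22, adjusted p = 1.8e-09). TXNIP, a thioredoxin inhibitor, read 10.37, 7.09 and 7.51 in UM-UC14 cells, against 13.07, 13.10 and 13.02 in UM-UC9 cells (log2 difference -4.74, SE 0.57, adjusted p = 4.7e-06), with UM-UC14 replicate 1 well above the other replicates, and the difference was -5.76 without that replicate. G0S2, a lipase inhibitor, was at least 6.65-fold lower. CPT1A, which carries fatty acids into mitochondria for oxidation, was at least 5.17-fold higher (other kept probes 0.17 and 0.20), while the water and glycerol channel AQP3 and the mitochondrial carrier UCP2 differed by 1.70 and 1.29. In the other arrays 8 of the 13 called targets were called in the same direction, and FABP4 and HILPDA in the opposite one.

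Of 20 genes of fatty acid binding and uptake 3 (15%) were higher and 4 (20%) lower, beside 13% each way over all genes. Of 40 genes of fatty acid oxidation 9 (22.5%) were higher and 6 (15%) lower, beside the same 13%. ETFB, an electron carrier of the pathway, read 10.96, 11.24 and 11.12 in UM-UC14 cells and was detected on no UM-UC9 array (at least 78-fold higher). ECI2, an enoyl-CoA isomerase, differed by 4.41. ACAA2, the mitochondrial thiolase, read 4.65, 4.86 and 4.63 in UM-UC14 cells, against 10.40, 10.38 and 10.48 in UM-UC9 cells, with detection on 1 of 3 UM-UC14 arrays (log2 difference -5.71, SE 0.11, adjusted p = 1.4e-14), and BBOX1, of carnitine synthesis, was at least 10.4-fold lower. Of 33 genes of fatty acid and triglyceride synthesis 4 (12.1%) were higher and 4 (12.1%) lower, beside 13% each way over all genes. The number lower was 8 with median scaling, and 6 without UM-UC9 replicate 1 or UM-UC14 replicate 1. The desaturase FADS1 differed by 5.11, with detection on 1 of 3 UM-UC9 arrays, SCD5 was at least 8.62-fold higher, and ME1, a cytosolic source of NADPH, read 9.61, 9.40 and 9.61 in UM-UC9 cells and was detected on no UM-UC14 array (at least 26.1-fold lower). SLC27A3, a fatty acyl-CoA synthetase, differed by 4.09, and CRABP2, a retinoic acid carrier, by -4.16. In cholesterol synthesis, uptake and efflux 3 of 29 genes (10.3%) were higher and 2 (6.9%) lower, below the 13% each way over all genes. Without UM-UC9 replicate 2, 1 was lower.

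Detoxification genes were more often called higher than lower in UM-UC14 cells. Of 42 tested genes of NRF2 response and glutathione, 16 (38.1%) were higher and 4 (9.52%) lower. GPX2, a glutathione peroxidase of epithelia, read 13.45, 13.75 and 13.92 in UM-UC14 cells and was detected on no UM-UC9 array (at least 474-fold higher, adjusted p = 3.2e-16). GSTM1, a glutathione transferase, read 13.68, 13.88 and 13.86 in UM-UC14 cells and was detected on no UM-UC9 array (at least 508-fold higher, adjusted p = 1.9e-16). GSTM2 differed by 9.24, with detection on 1 of 3 UM-UC9 arrays, although its other kept probe differed by -0.09, and these transferases are close paralogs. GPX1 read 12.09, 12.05 and 12.16 in UM-UC14 cells, against 5.93, 6.32 and 6.33 in UM-UC9 cells (log2 difference 5.91, SE 0.11, adjusted p = 1.4e-14). GSTT1, a transferase of another class, had the opposite pattern: it read 10.13, 10.12 and 9.99 in UM-UC9 cells and was detected on no UM-UC14 array (at least 37.9-fold lower, adjusted p = 9.6e-14). SOD2, the mitochondrial superoxide dismutase, and HMOX1, heme oxygenase, were lower, at -2.74 and -1.35. NRF2 binds antioxidant response elements, whose core was searched here as TGACNNNGC on both strands. The core stood in the promoters (250 bases before to 50 after the start, RefSeq, GRCh38.p14) of 4 of the 12 NRF2 and glutathione genes called higher that the table held, 6 of the 21 others and 13.6% of all 27305 promoters. The GPX2 promoter before the start (chr14:64942746-64942995, minus strand) is shown because GPX2 was among the largest differences of the comparison, with the match in capitals.
GPX2: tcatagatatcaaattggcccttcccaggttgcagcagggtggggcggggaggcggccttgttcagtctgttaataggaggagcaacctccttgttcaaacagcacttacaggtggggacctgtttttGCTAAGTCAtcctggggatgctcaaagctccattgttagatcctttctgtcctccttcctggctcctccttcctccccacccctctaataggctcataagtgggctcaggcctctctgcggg

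Retinoid, xenobiotic and steroid enzymes followed, with 17 of 41 genes (41.5%) higher and 8 (19.5%) lower and a median difference of 0.83 (0.55 with undetected genes at their bound). ALDH3A1, an aldehyde dehydrogenase, read 10.07, 10.95 and 10.93 in UM-UC14 cells, against 4.57, 4.82 and 4.46 in UM-UC9 cells, with detection on 1 of 3 UM-UC9 arrays (log2 difference 6.04, SE 0.19, adjusted p = 2.3e-12). DHRS3, which reduces retinal, read 12.15, 12.18 and 12.13 in UM-UC14 cells, against 7.37, 7.45 and 7.34 in UM-UC9 cells (log2 difference 4.77, SE 0.15, adjusted p = 1.7e-12). CYP24A1, which degrades vitamin D, differed by 3.91. HSD3B1, a steroid dehydrogenase, and CYP1A2 were at least 19.8-fold and at least 7.53-fold lower, and CYP1B1 differed by -3.95, with detection on 2 of 3 UM-UC14 arrays.

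Interferon response genes were called in both directions in nearly equal numbers. Of 55 tested, 17 (30.9%) were higher and 18 (32.7%) lower in UM-UC14 cells, with 16 higher and 20 lower under median scaling and 19 higher and 14 lower without UM-UC14 replicate 1. LGALS3BP, a secreted glycoprotein gene, read 11.26, 11.47 and 11.46 in UM-UC14 cells, against 7.09, 7.02 and 6.92 in UM-UC9 cells (log2 difference 4.39, SE 0.10, adjusted p = 5e-14). IRF7, a transcription factor that amplifies interferon production, read 9.24, 8.62 and 8.53 in UM-UC14 cells and was detected on no UM-UC9 array (at least 15.7-fold higher, adjusted p = 1.5e-11). IFI35 differed by 4.05 and OASL by 3.31. IFI27 read 6.50, 5.15 and 4.87 in UM-UC14 cells, against 12.07, 11.99 and 11.90 in UM-UC9 cells (log2 difference -6.48, SE 0.31, adjusted p = 2.3e-10), with UM-UC14 replicate 1 the highest of its group, and the difference was -6.97 without that replicate. OAS2, which makes the activator of an RNase, read 6.21, 5.78 and 5.55 in UM-UC14 cells, against 10.03, 10.16 and 9.78 in UM-UC9 cells (log2 difference -4.14, SE 0.16, adjusted p = 2e-11). IFI44L read 6.56, 6.47 and 6.63 in UM-UC14 cells, against 10.26, 10.13 and 9.79 in UM-UC9 cells (log2 difference -3.50, SE 0.12, adjusted p = 7e-12), and IFI6 read 10.62, 10.25 and 10.31 in UM-UC14 cells, against 13.48, 13.61 and 13.30 in UM-UC9 cells (log2 difference -3.07, SE 0.12, adjusted p = 3.3e-11). Of the 35 genes called, 19 were called in the same direction in the other arrays and 0 in the opposite one.

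Many interferon response genes carry a promoter element bound by interferon-activated factors, and it was found among genes called in either direction. The interferon-stimulated response element was searched as GAAA, then NN, then GAAA on both strands of the same promoter windows, counted apart from the antioxidant element, which it may overlap. It stood in 9 of the 10 promoters that the table held of genes called higher and 9 of the 16 of genes called lower, beside 3.65% of all 27305 promoters. The sequences before the start of LGALS3BP (chr17:78979924-78980173, minus strand), IFI27 (chr14:94110486-94110735, plus strand) and IFI44L (chr1:78620198-78620447, plus strand), from RefSeq on GRCh38.p14, are shown because the same element, in capitals, accompanied opposite differences.
LGALS3BP, higher: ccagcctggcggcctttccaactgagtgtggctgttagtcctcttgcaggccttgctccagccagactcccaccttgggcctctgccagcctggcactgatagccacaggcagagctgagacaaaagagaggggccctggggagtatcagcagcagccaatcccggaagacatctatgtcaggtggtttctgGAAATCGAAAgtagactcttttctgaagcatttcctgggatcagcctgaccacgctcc
IFI27, lower: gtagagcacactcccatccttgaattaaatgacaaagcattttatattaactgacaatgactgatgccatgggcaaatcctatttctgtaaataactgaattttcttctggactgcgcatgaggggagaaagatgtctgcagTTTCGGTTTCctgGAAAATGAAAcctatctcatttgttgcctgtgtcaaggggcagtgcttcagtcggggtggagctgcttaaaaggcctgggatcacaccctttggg
IFI44L, lower: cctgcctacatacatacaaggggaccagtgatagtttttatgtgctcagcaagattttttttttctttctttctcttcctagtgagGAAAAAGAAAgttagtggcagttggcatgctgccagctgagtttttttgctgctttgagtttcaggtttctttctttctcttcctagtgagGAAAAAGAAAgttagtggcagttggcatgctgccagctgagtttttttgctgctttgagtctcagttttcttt

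Inflammatory genes were more often called lower than higher in UM-UC14 cells. Of 40 tested NF-kB targets, cytokines and mediators, 20 (50%) were lower and 3 (7.5%) higher, with a median difference of -1.02 (-0.85 with undetected genes at their bound). IL6 read 8.86, 8.46 and 8.83 in UM-UC9 cells and was detected on no UM-UC14 array (at least 14.8-fold lower, adjusted p = 4.7e-12). CXCL5, a neutrophil-attracting chemokine, read 9.07, 9.07 and 9.04 in UM-UC9 cells and was detected on no UM-UC14 array (at least 18.7-fold lower, adjusted p = 2.8e-14). TNFAIP3, a feedback inhibitor of NF-kB, read 5.42, 6.04 and 6.37 in UM-UC14 cells, against 9.51, 9.49 and 9.44 in UM-UC9 cells (log2 difference -3.53, SE 0.18, adjusted p = 5.2e-10). The genes higher in UM-UC14 cells were IL1RN (3.58), the interleukin 1 receptor antagonist, TNFAIP2 (1.87) and TNFAIP8 (1.04). Of the 23 called genes, 22 were called in the same direction in the other arrays. Of 25 genes of antigen presentation 5 (20%) were higher and 3 (12%) lower, beside 13% each way over all genes. Under median scaling 3 were higher and 4 lower. HLA-G was at least 7.39-fold higher and the peptide transporter TAP2 differed by -1.66; HLA genes are similar enough that a probe may read several.

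**Figure D2:**
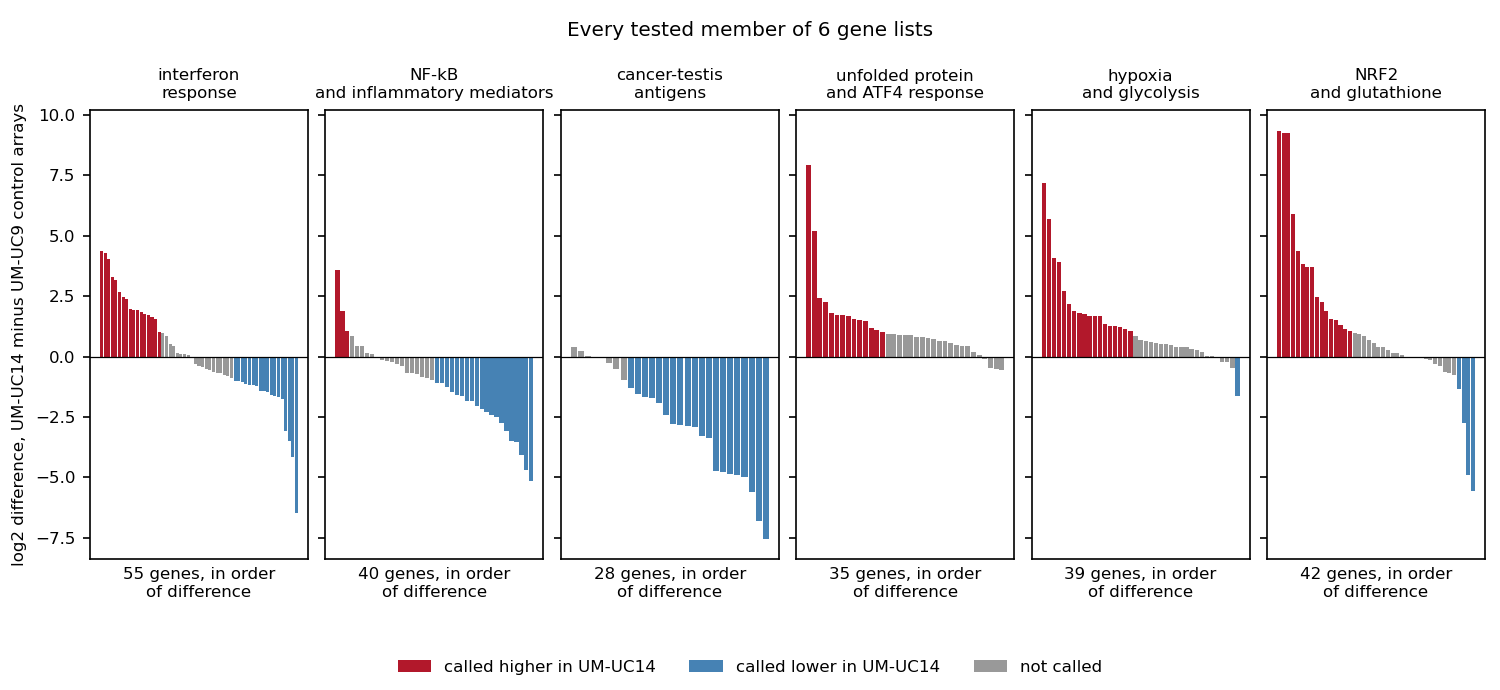
Log2 difference (y axis, UM-UC14 minus UM-UC9 control arrays) of every tested member of 6 gene lists, in order of size, coloured by call, with fitted values also for genes undetected in 1 line. The interferon list holds 17 higher and 18 lower calls, the NF-kB list 20 lower and 3 higher, the cancer-testis list 20 lower and 0 higher, and the other lists 14, 18 and 16 higher.

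CDK inhibitor genes separated the lines. CDKN2A, which encodes an inhibitor of CDK4 and CDK6, read 8.88, 8.98 and 8.76 in UM-UC9 cells and was detected on no UM-UC14 array (at least 16.5-fold lower, adjusted p = 2.3e-14). Its neighbours CDKN2B, a second inhibitor of those kinases, and MTAP, of methionine salvage, read 8.01, 7.95 and 7.96 and 8.49, 8.51 and 8.57 in UM-UC9 cells and were likewise detected on no UM-UC14 array (at least 8.83-fold and at least 12.9-fold lower). RB1, the tumour suppressor that those kinases inactivate, read 6.86, 7.12 and 7.06 in UM-UC9 cells and was detected on no UM-UC14 array (at least 4.53-fold lower, adjusted p = 3.8e-10). All 4 genes were detected on 0 of 3 FABP4 shRNA arrays and 3 of 3 rosiglitazone arrays. RB1 had 1 kept probe, CDKN2A and CDKN2B had 2 each, which had the same direction.

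The cyclins CCND1 and CCNE1 and the kinase CDK6 were also lower in UM-UC14 cells. CCND1 read 12.90, 12.44 and 12.43 in UM-UC14 cells, against 14.26, 14.31 and 14.31 in UM-UC9 cells (log2 difference -1.71, SE 0.14, adjusted p = 1.1e-07), CCNE1 differed by -1.87 and CDK6 by -1.66. CDKN1A and CDKN1B, inhibitors of a wider set of kinases, differed by -0.39, not called, and 1.29. Among target genes of p53, TP53I3 differed by 3.67, RRM2B by 1.84, DDB2 by 1.82, XPC by -1.69 and AEN by -1.59, and MDM2 (0.39) and BAX (0.40) were not called. Of 48 proliferation genes of G2 and M phase 9 (18.8%) were higher in UM-UC14 cells and 0 lower, beside 13% each way over all genes. The median difference was 0.45, and 39 of the 48 were not called. With median scaling 6 of the 48 were higher, where 1402 of all 13293 genes were. Among the higher ones were TOP2A (2.03), UBE2C (1.91, other kept probe 0.41), CDK1 (1.72) and KIF11 (1.36). With adjusted p alone and no fold threshold, 33 of the 48 were higher and 7 lower, beside 33.2% and 34.6% over all genes. Of 44 S phase genes 5 (11.4%) were higher and 2 (4.55%) lower, below the 13% each way over all genes. With median scaling 4 were higher and 4 lower.

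In chromosome order, taken from the RefSeq gene table for neighbourhood alone, the CDK inhibitor and FGFR3 differences had neighbours that were called with them. The neighbours named here were chosen after their values were seen. Around CDKN2A, among it and the 12 tested genes on each side, 8 were lower and 1 higher in UM-UC14 cells. KLHL9, MTAP, CDKN2A, CDKN2B-AS1 and CDKN2B were called lower without a gap, although KLHL9 was detected on 3 of 3 UM-UC14 control arrays and CDKN2B-AS1 on 2 of 3. MOB3B, 10 genes further on, was detected on 0 of 3 UM-UC14 control arrays but on 3 of 3 FABP4 shRNA arrays. Around RB1, 8 of 25 were lower and 1 higher. FNDC3A, SETDB2, EBPL, KPNA3, SPRYD7 and DLEU1, which follow RB1, were each detected on all UM-UC9 arrays and no UM-UC14 array, and were lower by at least 7.14-fold (SPRYD7) up to at least 30-fold (EBPL), while CAB39L, in the same stretch, was detected on all 6 arrays and differed by -3.63. TRIM13, RCBTB2, RCBTB1, DLEU2 and KCNRG, which lie in this stretch after RB1, were not called. TRIM13 was detected on all 6 arrays and differed by -0.46. RCBTB1 was detected on all UM-UC9 arrays and no UM-UC14 array, and was at least 1.38-fold lower. RCBTB2 was detected on no control array, DLEU2 on 1 of 3 arrays of each line and KCNRG on 2 of 3 UM-UC9 arrays alone. These 3 lay near background, where a difference could not be read. Around FGFR3, 19 of 25 genes were higher and 1 lower, with a median difference of 1.29 beside -0.02 over all genes. TACC3, the mitotic spindle gene next to FGFR3, read 10.79, 10.44 and 10.61 in UM-UC14 cells, against 9.03, 9.14 and 9.12 in UM-UC9 cells (log2 difference 1.52, SE 0.10, adjusted p = 7.1e-09). SH3BP2, an adaptor protein gene of this stretch, differed by 3.81, with detection on 1 of 3 UM-UC9 arrays, and FGFRL1, a receptor-like gene, was the member called lower (-1.43). Gene copy number was not measured.

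**Figure D3:**
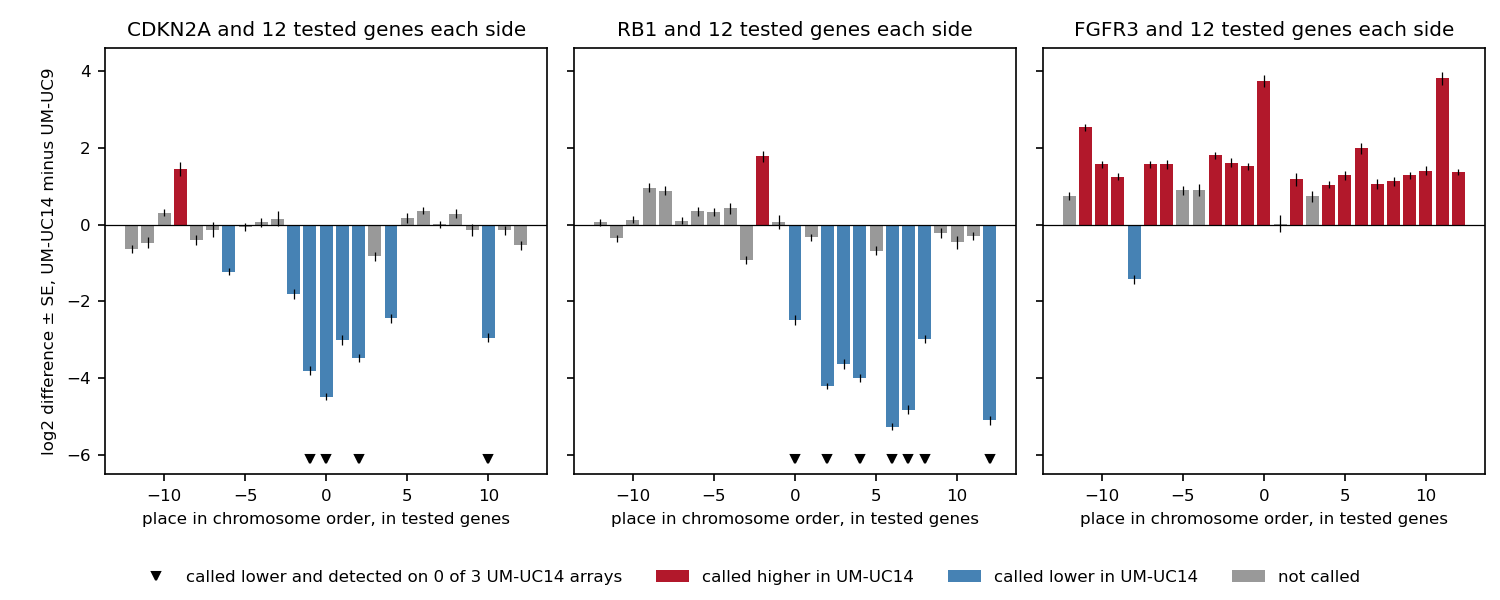
Log2 difference ± SE (y axis, UM-UC14 minus UM-UC9 control arrays) of CDKN2A, RB1 and FGFR3, at 0 on each x axis, and the 12 tested genes on each side in chromosome order. Triangles mark genes called lower and detected on 0 of 3 UM-UC14 arrays, 3 of them at CDKN2A with MOB3B 10 genes further on, and 7 from RB1 onward, and 19 of the 25 genes around FGFR3 are called higher.

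Stress response genes were called in 1 direction, higher in UM-UC14 control cells, with wide spread between its arrays. Of 35 genes of the unfolded protein and ATF4 response 14 (40%) were higher and 0 lower (11 higher with median scaling), with a median difference of 0.88. The count was 11 without UM-UC14 replicate 1 and 23 without replicate 3. GDF15, a stress-induced cytokine, read 12.90, 13.87 and 13.77 in UM-UC14 cells, against 5.78, 5.46 and 5.59 in UM-UC9 cells (log2 difference 7.90, SE 0.24, adjusted p = 1.4e-12). DDIT3, a transcription factor of this response, read 12.14, 12.77 and 11.04 in UM-UC14 cells, against 6.83, 6.83 and 6.72 in UM-UC9 cells (log2 difference 5.19, SE 0.31, adjusted p = 2.9e-09). PPP1R15A, which restores translation under stress, read 11.06, 11.47 and 10.82 in UM-UC14 cells, against 8.67, 8.73 and 8.66 in UM-UC9 cells (log2 difference 2.43, SE 0.17, adjusted p = 2e-08), and the cystine transporter SLC7A11 was at least 4.01-fold higher. In the other arrays 3 of the 14 were called in the same direction and 2 in the opposite one. GDF15 differed there by 0.58 and was not called, and the difference between the line contrasts was past the threshold (7.32, adjusted p = 1.1e-08).

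Hypoxia and glycolysis genes were higher in UM-UC14 cells in 18 of 39 cases (46.2%) and lower in 1 (2.56%), with a median difference of 0.69 and with 15 higher under median scaling. STC2, a secreted glycoprotein gene, read 11.07, 12.23 and 11.21 in UM-UC14 cells and was detected on no UM-UC9 array (at least 103-fold higher, adjusted p = 3.5e-12). ALDOC, a glycolytic aldolase, read 11.99, 12.51 and 12.63 in UM-UC14 cells, against 6.63, 6.79 and 6.59 in UM-UC9 cells (log2 difference 5.71, SE 0.15, adjusted p = 2.7e-13). BNIP3, of mitochondrial autophagy, differed by 4.09, the glucose transporter SLC2A3 was at least 13.8-fold higher, and PDK3, a pyruvate dehydrogenase kinase, was the member called lower (-1.65). Of the 19 called, 9 were called in the same direction in the other arrays and 2 in the opposite one. MYC targets and ribosome biogenesis genes leaned the other way, with 7 of 36 (19.4%) lower and 1 (2.78%) higher and a median difference of -0.51. The number lower was 11 and the number higher 3 without UM-UC14 replicate 1, and the number lower was also 11 with median scaling. POLR1B, an RNA polymerase I subunit, read 6.43, 6.20 and 5.85 in UM-UC14 cells, against 8.55, 8.58 and 8.63 in UM-UC9 cells (log2 difference -2.43, SE 0.13, adjusted p = 7.7e-10), and the polyamine synthesis genes SRM and ODC1 differed by -2.00 and -1.32.

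Genes of position and of Wnt signalling were more often called higher than lower in UM-UC14 cells, and Notch and Hedgehog genes had equal counts in both directions under 2 alternative settings. Of 31 HOX and other positional factors, 12 (38.7%) were higher and 4 (12.9%) lower. SOX15 read 11.23, 11.18 and 11.47 in UM-UC14 cells, against 4.73, 5.00 and 4.84 in UM-UC9 cells, with detection on 1 of 3 UM-UC9 arrays (log2 difference 6.44, SE 0.10, adjusted p = 2.7e-15). IRX3 and HOXC4 were at least 23.2-fold and at least 7.16-fold higher, and PAX8 was at least 4.59-fold lower (other kept probe -0.43). HOXC6 differed by 2.82 (other kept probes 0.14 and 0.46) and HOXB8 by -1.69. In Wnt signalling 7 of 26 genes (26.9%) were higher and 2 (7.69%) lower: the inhibitor DKK1 differed by 2.72 and the receptor FZD7 by 2.33 (other kept probe 0.20), and the ligand WNT5B was at least 12.8-fold lower. In Notch and Hedgehog signalling 6 of 20 (30%) were higher and 3 (15%) lower, but 6 and 6 with median scaling and 5 and 5 without UM-UC14 replicate 1. The Notch target HEY1 read 10.22, 11.34 and 11.44 in UM-UC14 cells, against 6.73, 6.43 and 6.59 in UM-UC9 cells (log2 difference 4.42, SE 0.24, adjusted p = 1.1e-09), the ligand DLL1 was at least 9.88-fold higher, and the receptor NOTCH2 differed by -1.98. In TGF-beta and BMP signalling 9 of 26 (34.6%) were higher and 5 (19.2%) lower. Besides GDF15 these included the latent binding protein LTBP2 (2.64), the decoy receptor BAMBI (2.34), the inhibitor SMAD7 (-1.72) and the receptor TGFBR2 (-1.48).

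At the cell surface and in the matrix, plasminogen activators were higher and basement membrane collagens lower in UM-UC14 cells. Of 37 proteases and inhibitors 12 were higher and 12 lower (32.4% each), beside 13% each way over all genes. PLAT, the tissue plasminogen activator, read 12.64, 13.14 and 13.24 in UM-UC14 cells, against 4.97, 4.59 and 4.61 in UM-UC9 cells, with detection on 1 of 3 UM-UC9 arrays (log2 difference 8.28, SE 0.14, adjusted p = 6e-15). PLAU, urokinase, read 11.14, 11.61 and 11.22 in UM-UC14 cells, against 5.10, 5.46 and 5.42 in UM-UC9 cells (log2 difference 6.00, SE 0.14, adjusted p = 1.2e-13), and its receptor PLAUR read 8.00, 7.66 and 7.80 in UM-UC14 cells, against 10.27, 10.24 and 10.21 in UM-UC9 cells (log2 difference -2.42, SE 0.11, adjusted p = 1e-10). The metalloproteinase MMP28 was at least 40.1-fold higher and TIMP4, an inhibitor of such enzymes, at least 90.5-fold lower. Of 31 integrins and matrix genes 6 (19.4%) were higher and 5 (16.1%) lower, near the 13% each way over all genes. COL4A1, a basement membrane collagen chain, read 5.75, 6.44 and 6.65 in UM-UC14 cells, against 12.15, 12.22 and 12.24 in UM-UC9 cells (log2 difference -5.92, SE 0.17, adjusted p = 1.1e-12), and its partner chain COL4A2 was at least 14.2-fold lower. ITGA5, the fibronectin receptor subunit, differed by -2.32. Of 34 mucins and surface glycoproteins 8 (23.5%) were higher and 9 (26.5%) lower, beside 13% each way over all genes. TFF2 and MUC4, a trefoil peptide and a membrane mucin, were at least 23.6-fold and at least 15.6-fold lower, but the other kept probes of MUC4 differed by -0.06 and -0.57. TFF1 differed by -3.93, and the surface proteins TSPAN8 and LY6E differed by 5.15 and 4.53, with TSPAN8 detected on 2 of 3 UM-UC9 arrays.

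Cancer-testis antigens, genes whose expression in healthy adults is largely restricted to germ cells, were expressed in UM-UC9 cells and mostly undetected in UM-UC14 cells. Of 28 tested, 20 (71.4%) were lower and 0 higher. Of the 28, 17 were detected on all UM-UC9 arrays and no UM-UC14 array, a class that held 4.69% of all genes tested. The median difference was -2.58 (-2.02 with undetected genes at their bound), and all 20 were called in the same direction in the other arrays. Of 47 listed genes, 14 were not detected on enough arrays. Of the 28 tested, 24 were detected on all UM-UC9 control arrays and 3 on all UM-UC14 control arrays. MAGED1, among the 20 called lower, differed by -1.67 with a mean level of 10.59 over the arrays of the series. Not every call in the list was thus of a gene near background in UM-UC14 cells. Genes could pass the detection filter through UM-UC9 arrays alone, so these shares depend in part on the filter. MAGEA10 read 11.94, 11.83 and 11.99 in UM-UC9 cells and was detected on no UM-UC14 array (at least 136-fold lower, adjusted p = 1.9e-16). MAGEA1 read 11.24, 11.22 and 11.26 in UM-UC9 cells and was detected on no UM-UC14 array (at least 84.7-fold lower, adjusted p = 7e-16). MAGEA6 read 5.04, 4.64 and 4.75 in UM-UC14 cells, against 10.40, 10.39 and 10.40 in UM-UC9 cells, with detection on 1 of 3 UM-UC14 arrays (log2 difference -5.58, SE 0.11, adjusted p = 2.1e-14), and MAGEA12 was at least 22.8-fold lower. MAGE genes form families of near-identical copies, so the probes may not separate the members. When only probes detected on all 6 arrays were used, 1 gene of this list was called lower, because most members drop out under that filter. Among 31 chromatin genes 3 (9.68%) were higher and 4 (12.9%) lower, no more than the 13% each way over all genes. The counts were 0 higher and 3 lower without background correction, and 2 higher and 6 lower with median scaling. The cohesin subunit STAG2 differed by -2.30, the deacetylase HDAC9 was at least 4.43-fold lower, with its other kept probes at 0.01 and -1.42, and the methyltransferase gene NSD2 differed by 1.18, with detection on 2 of 3 UM-UC9 arrays.

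**Figure D4:**
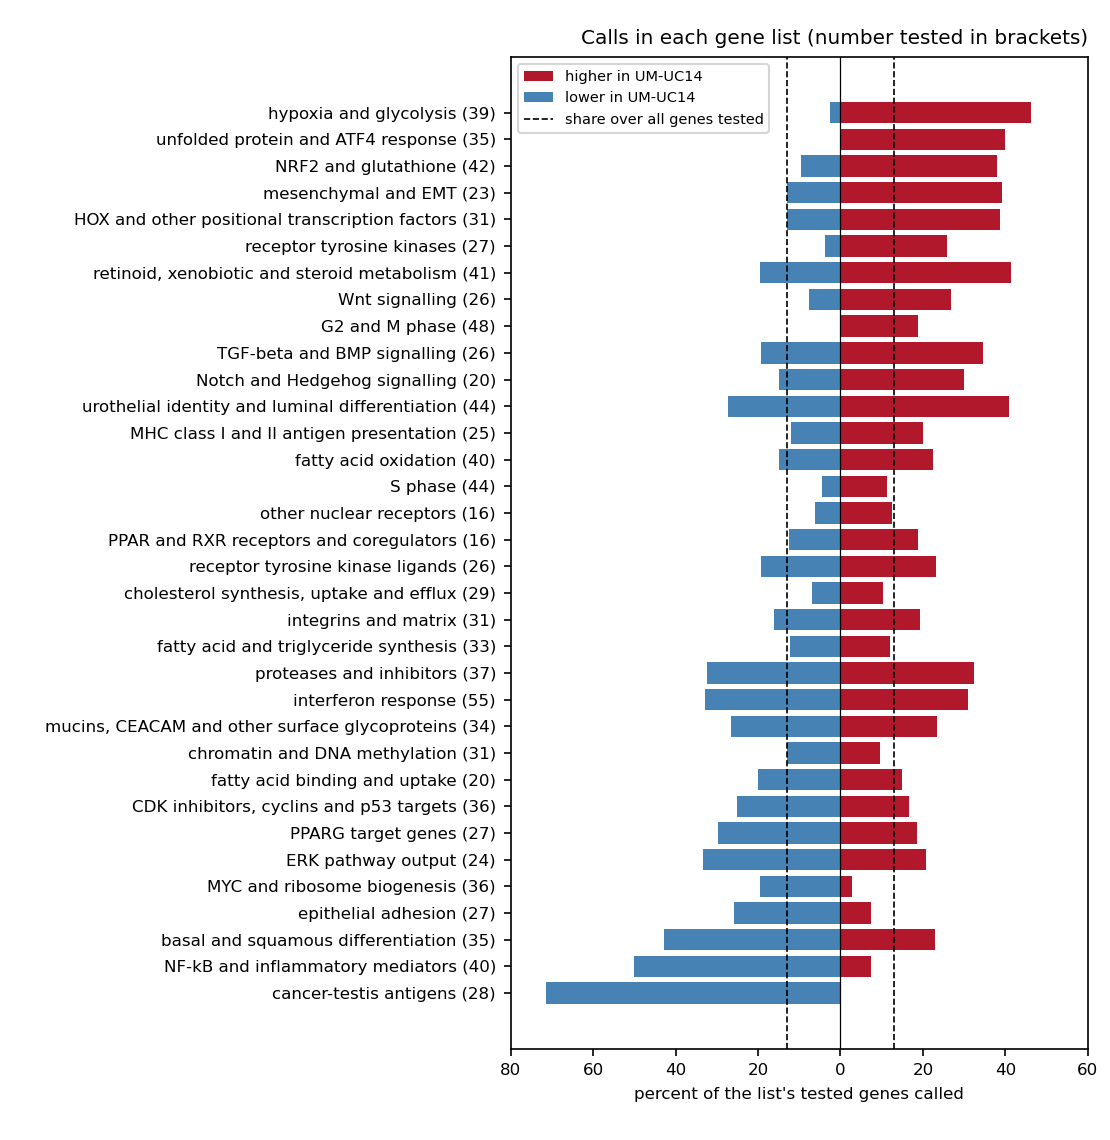
Share of each list's tested genes called higher (red, to the right) or lower (blue, to the left) in UM-UC14 control cells, in percent (x axis), for 34 gene lists, with dashed lines at 13%, the share over all genes tested. Hypoxia and glycolysis (46.2% higher) and cancer-testis antigens (71.4% lower) lie at the ends, and interferon response genes reach past both lines.

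The line differences were also read on the 6 arrays not used above, UM-UC14 cells with FABP4 shRNA against UM-UC9 cells with rosiglitazone. There, 3291 genes (24.8%) were called. Of these, 2231 were called in the control arrays in the same direction, which is 64.7% of the control calls and 67.8% of the others, and 30 were called in the opposite direction. Of the 1148 genes called with at least 4-fold between the control arrays, 1077 were called in the same direction. FABP4 itself differed by 3.08 in the control arrays and by -4.33 in the others. It is the gene that the shRNA targets. The difference between the line contrasts was past adjusted p below 0.05 in 5520 genes.

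**Figure D5:**
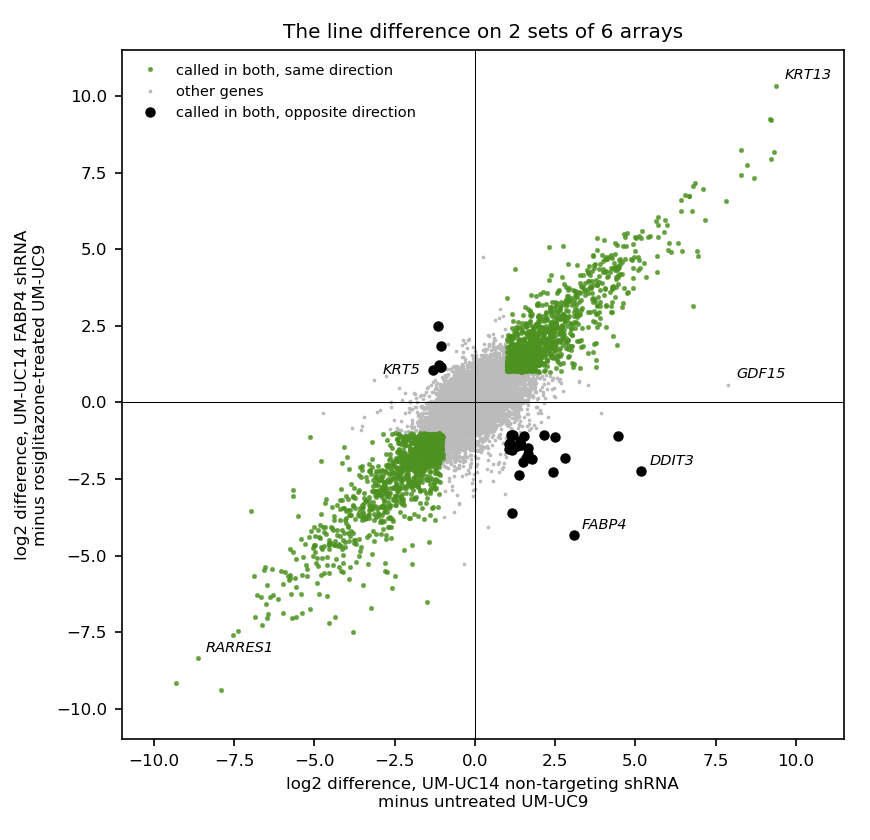
Log2 difference between the lines in the control arrays (x axis, UM-UC14 non-targeting shRNA minus untreated UM-UC9) and in the other 6 arrays (y axis, UM-UC14 FABP4 shRNA minus rosiglitazone-treated UM-UC9), 1 point a gene. Most large differences lie along the diagonal, among them KRT13 and RARRES1, while FABP4 and DDIT3 lie below 0 on the y axis only and GDF15 and KRT5 lie near 0 on it.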

How the data were processed

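Total RNA of 12 samples was labelled and hybridised to Illumina bead arrays, per the labels' protocols. The authors deposited a probe intensity and a detection p-value for each array, not normalized, and a table of log2 values processed by the authors, which lay within 0.0106 of quantile normalized log2 intensities. Here, neqc of limma 3.58.1 (R 4.3.3) corrected the background from the detection p-values, added an offset of 16, quantile normalized and took log2. Probes with detection p below 0.05 on at least 3 of 12 arrays were kept (25176 of 47323), of which 18384 had 1 gene symbol. GEO's platform annotation gave 30113 probes 1 gene, 8 several and 17202 none, and the gene of 30074 probes matched the RefSeq table. The probe with the highest mean stood for its gene, giving 13293 genes. On the 6 control arrays 20892 to 22095 probes were detected (44.15% to 46.69%), and the number of arrays limits the precision.

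One linear model with 4 groups was fitted to all 12 arrays, with empirical Bayes moderation and p-values adjusted by the Benjamini-Hochberg method over all genes. The members and gene lists were chosen with earlier results of these data known. The text names FABP4, PPARG, the 15 leading genes in each direction, up to 4 called genes a direction in each list, and members of the lineage, receptor and cell cycle lists. Any other gene was chosen after its values were seen. Lists are described by counts beside those over all genes. On simulated data for this comparison (13293 genes, 200 changed), 97% of genes changed by 1.5 log2 units and 99% of those changed by 2 were called. Deviations of same-numbered replicates correlated at -0.07, -0.09 and -0.02, so the numbers do not pair the samples. Promoter sequences (250 bases before to 50 after the start) came from RefSeq, build GRCh38.p14, with 10554 of 13280 tested genes matched. The sources used here do not give the scanner software's settings.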

Additional observations from a re-analysis of the deposited data

Results flagged for a closer look

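For 5 named genes the line difference was called between the control arrays and called in the opposite direction between UM-UC14 cells with FABP4 shRNA and UM-UC9 cells with rosiglitazone, and limma's test of the difference between these contrasts passed the threshold. FABP4 differed by 3.08 between the control arrays and by -4.33 between the others, a difference of 7.4 (adjusted p = 2.9e-12). For DDIT3 the values were 5.19 and -2.25, a difference of 7.44 (adjusted p = 1.1e-07). For PPP1R15A they were 2.43 and -2.28, a difference of 4.71 (adjusted p = 2.9e-08). HILPDA, a lipid droplet protein gene, gave 1.77 and -1.86, a difference of 3.63 (adjusted p = 3.8e-05). PEG10, an imprinted gene, gave -1.08 and 1.16, a difference of -2.24 (adjusted p = 3.4e-06), and its control difference was -0.99 without UM-UC14 replicate 2. Both contrasts set one line against the other, and each also differs in what the cells carried or were given, so the part of either line in these reversals was not tested. No test for outlying single values was run, since each group held 3 arrays.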

How the results depend on the processing

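Of the 3449 called differences, with 1724 higher and 1725 lower, no background correction gave 2667, the authors' processed values 2669 and the mean of a gene's probes 3276. Leaving out 1 array at a time gave 3346 to 3703 calls, 1672 to 1834 higher and 1658 to 1869 lower. The number called in the same direction in the other arrays (2231) ranged over 2221 to 2261, and the calls in those arrays (3291) over 3262 to 3351. Genes detected in 1 line alone (1127) ranged over 1222 to 1291. With an array left out, fewer arrays had to meet the detection rule, so this count could not fall and its range does not test it. With all arrays, the count was 1209 at detection p below 0.01. With probes detected on all 6 arrays alone, 1149 genes were lower and 1339 were called in the same direction in both sets of arrays, as genes undetected in 1 line drop out. A test against a 2-fold difference (treat) gave 2166 calls, 1078 higher and 1088 lower. Without a fold threshold there were 9010, 4415 higher and 4595 lower, with 6023 in both sets, and at 4-fold 1148, 579 and 569, with 872 in both sets. The fit with the replicate number as a block gave the same 3449 calls. Every group held the same replicate numbers, so the block could not change any log2 difference, only its p-value. With 9010 genes past adjusted p alone, the fold threshold decided most calls. The unchanged calls were therefore largely built in and do not test the result, and the numbers do not pair the samples. Called genes were also followed 1 by 1 (294 genes) under the alternatives other than the 2-fold test and the changed fold thresholds. Of the 4581 values, 4496 were called in the same direction, 85 (in 32 genes) were not called and 0 reversed. These genes were followed because they were called, many of them for large differences. Several alternatives also reused the same normalised values, so much of this agreement was built in. Weak detection limits genes near background. Their folds are lower bounds where no array of a line detected the gene, and uncertain in size where only some did.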

Other observations

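Beside the lists of the report, runs of neighbouring genes were detected in 1 line and not the other. Among windows of 15 tested neighbours in chromosome order that do not overlap each other, the highest median difference stood from MYL5 to TACC3 (1.52, 9 higher and 1 lower in UM-UC14 cells), followed by KHDC1 to SH3BGRL2 (1.5, 10 higher and 0 lower) and BEX1 to TMSB15B (1.33, 9 higher and 1 lower). The lowest stood from FNDC3A to INTS6 (-3.63, 0 higher and 9 lower), S100A11 to S100A8 (-2.77, 0 higher and 10 lower), which holds the small proline-rich genes of the cornified envelope, and SNORA7A to CCDC174 (-2.10, 2 higher and 10 lower), which holds the DNA repair gene XPC. Of 12946 overlapping windows, 1% lay below -1.31 and 1% above 0.96. These windows were chosen after their values were seen.

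Unbroken runs of at least 3 neighbours that were called, and detected on all arrays of 1 line and none of the other, numbered 8. MMP2, LPCAT2 and CAPNS2 formed one in UM-UC14 cells, and SH3BP5L, ZNF672, ZNF692 and PGBD2 formed another in UM-UC9 cells. MMP2, a metalloproteinase gene, read 6.70, 6.67 and 6.84 in UM-UC14 cells and was detected on no UM-UC9 array (at least 3.78-fold higher). ZNF692, a zinc finger gene, read 7.41, 7.52 and 7.48 in UM-UC9 cells and was detected on no UM-UC14 array (at least 6.21-fold lower).

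The RefSeq promoter table (GRCh38.p14) gives the number of CG pairs before and after each start. In the window of 300 bases the median was 22 in genes called higher and detected in UM-UC14 cells alone, 16.5 in genes called lower and detected in UM-UC9 cells alone, 26 in genes called and detected in both lines, and 25 over all genes tested. Cancer-testis antigens called lower had a median of 13. DNA methylation was not measured.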
